A study of Mus musculus with 20 samples.

Results

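The ileum of mice on a high fat diet with porphyran (HFD+PP) was set against the ileum of mice on a control diet (CD), a comparison of 2 of the 20 arrays of the series. Porphyran is a sulfated galactan from the cell wall of nori, an edible red seaweed. Both groups were male C57BL/6J mice that were 5 weeks old at the start and were fed for 13 weeks. The control diet gave 10% of its energy as fat, and the other diet gave 60% and held 2% porphyran by weight, so the groups differ in fat content and in porphyran at once. Each array held total RNA pooled from 7 mice of 1 group. The other 18 arrays cover liver, mesenteric fat, brown fat and colon, and the ileum of mice on the high fat diet alone (HFD) or with a nori extract added at 2% by weight (HFD+Ex). Those other ileum arrays are quoted beside the comparison to place its values, and all 3 differences from the control diet share the 1 CD array.

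The ileum is the last stretch of the small intestine. Its enterocytes take back bile acids, send the hormone FGF15 to the liver when bile acids reach the nuclear receptor FXR, and absorb the fat and sugar that the upper intestine left. Paneth and goblet cells in its epithelium release antimicrobial proteins and mucus, and many of these genes follow microbes and cytokines such as IL-22. The nuclear receptors CAR and PXR, which sense foreign compounds and some bile acids, switch on drug-metabolising enzymes there.

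A level is the log2 processed signal of a gene's probe minus the 75th percentile of its array, so a level of 0 lies at that percentile. Of 21154 genes, 16477 were measured, which means that either array showed them well above background, and 15147 were measured on both. The spots well above background were 64.6% on the CD array and 57.3% on the HFD+PP array, and no spot was saturated. Judged from replicate spots, a difference has a technical SD of 0.096 log2, which leaves out all variation between mice and pools. With 1 array per group there is no replicate check, and no test was made of any difference. "Rose" and "fell" are used only of differences of at least 2-fold. Where the dimmer array was not well above background, its floor was used and the difference is a bound, written "at least".

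The bulk of the ileum genes lay close together on the 2 arrays. The median difference, HFD+PP minus CD, was 0.007 log2, and the middle 50% of the genes measured on both spanned 0.21 log2. That span was 0.45 log2 for HFD minus CD, 0.33 log2 for HFD+Ex minus CD and 0.34 log2 for HFD+PP minus CD in colon. A total of 224 genes were higher (1.36% of the measured genes), 140 of them as bounds, and 168 were lower (1.02%), 105 of them as bounds. Against the same CD array, the HFD array had 267 higher genes (1.62%) and 376 lower genes (2.28%). The HFD+Ex array had 312 higher genes (1.88%) and 368 lower genes (2.21%). In colon, HFD+PP minus CD gave 221 higher genes (1.3%) and 297 lower genes (1.74%).

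**Figure D1:**
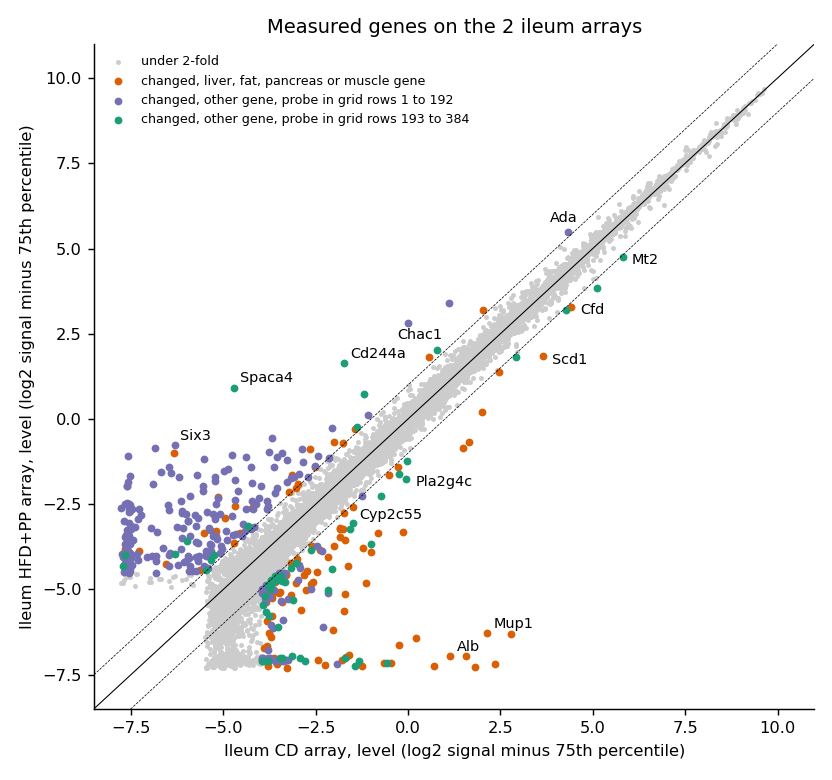
Levels of the 16477 measured genes on the ileum CD array (x axis) and the ileum HFD+PP array (y axis), both as log2 signal minus the 75th percentile. Dashed lines mark 2-fold differences; most genes lie between them, the lower right holds liver genes such as Mup1 and Alb, and the left holds dim genes probed in rows 1 to 192 of the array.

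Genes best known from the liver were measured on the ileum CD array, so liver and fat genes were counted apart. Genes typical of liver, mesenteric fat or brown fat, together with lists of liver, fat cell, pancreas and skeletal muscle genes, made up 26 of the higher and 82 of the lower genes. Without them 198 genes were higher and 86 were lower. Of the 16477 measured genes, 969 were typical of liver, 465 of mesenteric fat and 878 of brown fat, and a gene could be typical of several. In that order 10, 12 and 13 of them rose, and 72, 32 and 32 fell. The share of the whole set apart among all measured genes is not given here. Of 43 liver genes on the array, 41 were well above background in ileum of CD, against 24 on HFD, 24 on HFD+PP and 25 on HFD+Ex. Their median level was −1.23 on CD, −4.48 on HFD, −4.31 on HFD+PP and −4.97 on HFD+Ex. Their summed level was 9.40, 9.39, 9.16 and 9.22 in that order, of which Slc10a1, the hepatic bile acid importer, alone gave 9.19, 9.23, 8.95 and 9.04. The Slc10a1 probe was nearly as high on the CD arrays of other tissues, at 9.78 in liver, 9.18 in mesenteric fat and 8.70 in colon. Of the 41 measured, 21 fell and 1 rose on HFD+PP (median difference −1.09). The same list had a median difference of −3.16 for HFD+PP minus CD in colon, with 28 of 41 lower and 0 higher.

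Alb, which encodes serum albumin, had a level of 1.12 on CD and was not well above background on the 3 other ileum arrays, which makes it at least 68.1-fold lower on HFD+PP. The major urinary proteins are made by the male liver. Mup19 had a level of 2.77 on CD and was at least 214-fold lower, Mup18 was at 2.35 and at least 160-fold lower, and Mup1 was at 2.13 and at least 137-fold lower. Mup20 and Ahsg, the plasma protein fetuin-A, were at least 51.0-fold and at least 36.1-fold lower. The Mup genes are near-identical copies, and their probes may not tell them apart. Liver levels stood above those of the ileum: over the 41 liver genes, the liver CD array was higher than the ileum CD array by a median of 9.71 log2. The part of liver RNA in the lower genes was not tested.

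The fat cell list showed no such shift of its median on HFD+PP. Of 28 measured, 1 rose and 3 fell, with a median difference of −0.03, against −0.71 for HFD minus CD and −0.42 for HFD+Ex minus CD. Genes typical of mesenteric fat had a median difference of −0.17 on HFD+PP, with 12 of 465 higher and 32 lower. Those typical of brown fat had a median of −0.04. Cfd, the complement protease adipsin, had levels of 4.42 on CD, 0.04 on HFD, 3.29 on HFD+PP and 1.82 on HFD+Ex, so it was 2.20-fold lower on HFD+PP. Retn, the fat cell hormone resistin, was at 2.45, −0.94, 1.38 and −0.07 in that order. Lep, the fat hormone leptin, went the other way, at −4.70, −3.96, −2.56 and −4.52, and was 4.39-fold higher on HFD+PP. All 14 measured mesothelial genes, which mark the outer lining of the gut wall and its fat, were above 0 (median 0.46). So were 8492 of all 16477 measured genes. Of the 14 mesothelial genes, 4 rose and 0 fell. These were Upk3b (2.06 log2), Lrrn4 (1.91 log2), Wt1 (1.63 log2) and Msln (1.16 log2), and with normexp background correction all 4 were under 2-fold (0.58, 0.57, 0.74 and 0.97 log2), as was Lep (0.84 log2). The summed mesothelial level was 8.62 on CD, 8.83 on HFD, 8.77 on HFD+PP and 8.71 on HFD+Ex, and that of the fat cell genes was 7.79, 7.65, 7.74 and 7.57. A sum weighs its brightest members most. In the same order of arrays, the median mesothelial level was −1.17, −0.96, −0.59 and −1.14. That of the fat cell genes was 1.58, 0.11, 1.15 and 0.41. Of 18 exocrine pancreas genes 1 rose and 0 fell, and of 14 skeletal muscle genes 2 rose and 0 fell. In a bulk pool, fewer cells of a type and less RNA per cell cannot be told apart.

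**Figure D2:**
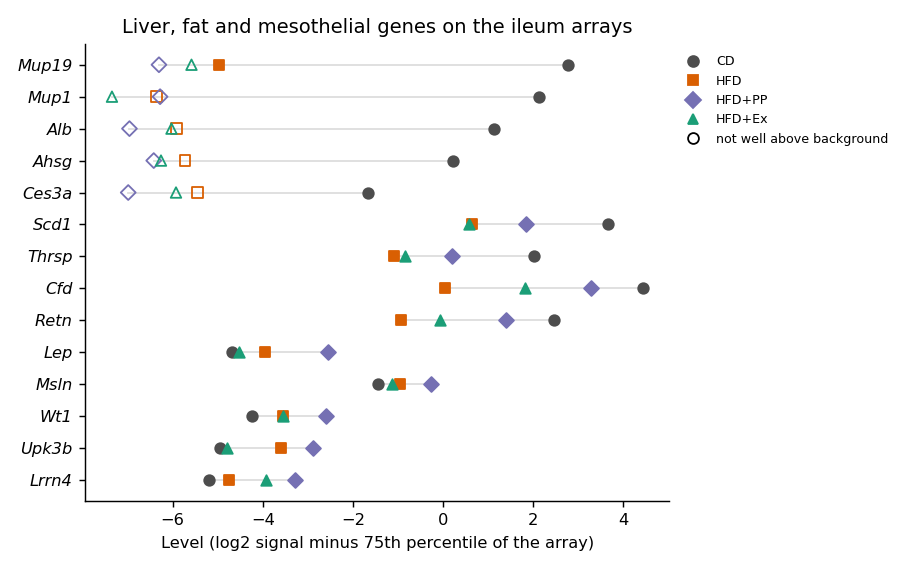
Levels (x axis, log2 signal minus the 75th percentile) of liver, fat and mesothelial genes on the 4 ileum arrays, 1 array per diet. Open symbols are not well above background: Mup1, Alb, Ahsg and Ces3a are filled on CD only, while Msln, Wt1, Upk3b and Lrrn4 are highest on HFD+PP.

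The place of a probe on the array went with the calls. The array has 384 rows, and 51.0% of the measured genes have their probe in rows 1 to 192. Of the 198 higher genes outside other tissues, 185 (93.4%) lay in those rows, against 42 of the 86 lower genes (48.8%). Of those 86 lower genes, 50 (58.1%) lay in the first or last 32 rows, as did 17.5% of the measured genes. Counted by spot, 740 spots stood at least 2-fold above the 3 other ileum arrays on HFD+PP, and 703 of them (95%) were in rows 1 to 192. The same count gave 631 of 706 spots (89.4%) on HFD+Ex, 44 of 260 (16.9%) on HFD and 535 of 988 (54.1%) on CD, where 50.1% of all spots lie in those rows. Of the 198 higher genes, 7 had a second measured probe, which was past 2-fold the same way for 3 (Kif26b, Rbmy and Stard6). Of the 86 lower genes 5 had one, which was past 2-fold for 0. The part of array position in the counts was not tested.

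**Figure D3:**
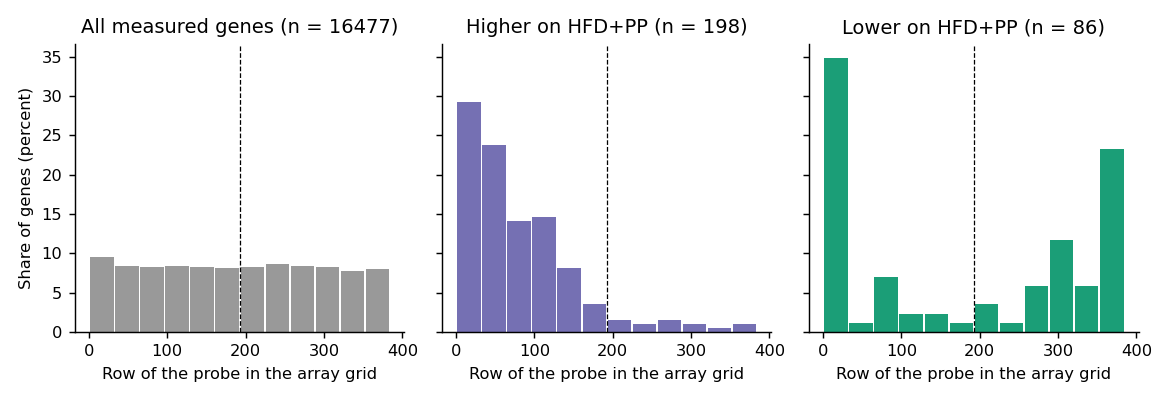
Share of genes (y axis, percent) by the row of their probe in the array grid (x axis, 32 rows a bar), for the 16477 measured genes, the 198 higher and the 86 lower genes outside other tissues. The dashed line follows row 192: measured genes are spread evenly, higher genes gather in the first rows, and lower genes gather in the first and last bars.

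With genes of low mean level set aside, fewer changes were left. At a mean level of at least −2 over the 4 ileum arrays and outside other tissues, 13 genes were higher and 9 were lower, a cut chosen after the values were seen. That mean takes in the 2 compared arrays, so a gene could pass through the array where it was high. Slc22a15 was below −2 on CD, HFD and HFD+Ex, and Robo2 was below −2 on HFD, HFD+PP and HFD+Ex. The number of measured genes at that level is not given here, so these counts carry no share. The higher genes were Spaca4, Cd244a, Celf4, Cyp17a1, Erp44, Slc22a15, Mast3, Lct, Yes1, Chac1, Ctu1, Fa2h and Ada. The lower genes were Pla2g4c, Cyp2c55, Cyp3a44, Csnk2b, Ankrd22, Retnlb, Map7d1, Mt2 and Robo2. Of the higher genes, Celf4, Cyp17a1, Slc22a15, Mast3, Lct, Yes1, Ctu1 and Ada were probed in rows 1 to 192, and of the lower, Robo2.

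Among host defence genes, Retnlb stood out. It encodes RELM-beta, a goblet cell protein that acts on bacteria and is induced by type 2 cytokines. Its levels were 2.92 on CD, −0.09 on HFD, 1.82 on HFD+PP and −2.07 on HFD+Ex. It was highest on CD, and HFD+PP was 2.13-fold below that, while HFD was 8.01-fold below. In colon it went the opposite way, from 1.04 on CD to 3.0 on HFD+PP (1.96 log2). It was not well above background in liver or mesenteric fat of CD.

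Of 26 measured REG lectins and inducible antimicrobials, 0 rose and Retnlb alone fell on HFD+PP (median −0.01). On HFD 8 of 26 fell, and on HFD+Ex 9 of 26 fell and 1 rose. Reg3g, a lectin that kills Gram-positive bacteria, was at 9.23 on CD, 9.13 on HFD, 9.27 on HFD+PP and 8.80 on HFD+Ex, and Reg3b at 8.86, 8.87, 8.93 and 8.63. Both lay within 0.10 log2 of CD on HFD+PP, while in colon they rose by 2.20 and 1.96 log2. Saa1, an acute phase protein that carries retinol, was at 8.32, 7.18, 8.02 and 6.07 in the order CD, HFD, HFD+PP and HFD+Ex. Duoxa2, which matures the peroxide-making dual oxidase, was at 4.14, 2.83, 4.03 and 2.23. Pla2g5, a secreted phospholipase, was at 2.54, 0.98, 2.64 and 0.07, and Fut2, which fucosylates the epithelial surface, at 0.12, −1.98, −0.36 and −2.68. For these 4 genes the HFD+PP array lay within 0.50 log2 of CD, and the other high fat arrays lay lower by more than 1 log2.

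Il22, the lymphoid cytokine that switches on many epithelial antimicrobials, was dim on every ileum array. Its levels were −2.46 on CD, −4.76 on HFD, −3.72 on HFD+PP and −4.18 on HFD+Ex, so it was 2.40-fold lower on HFD+PP. It was the only one of 20 measured mucosal T cell and innate lymphoid cytokine genes past 2-fold (median −0.05). With normexp background correction its difference was −0.64. Of 25 measured inflammatory mediators, 0 rose and 0 fell on HFD+PP (median −0.11), against 8 lower on HFD and 6 lower on HFD+Ex. S100a9, a calcium-binding protein of neutrophils, was at −1.23 on CD, −3.81 on HFD, −2.07 on HFD+PP and −3.32 on HFD+Ex. Cxcl1, which attracts neutrophils, was at −3.53, −6.06, −4.51 and −4.08, where the HFD value lies below that array's floor of −5.48. Mptx1, a pentraxin of the intestinal epithelium chosen after its values were seen, was at 4.76, 2.62, 3.85 and 3.27. The CD array was the highest of the 4 for each of these.

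Further lower genes followed that order. Pla2g4c, a cytosolic phospholipase A2, was at −0.04 on CD, −2.47 on HFD, −1.75 on HFD+PP and −2.82 on HFD+Ex, which is 3.27-fold lower on HFD+PP. U90926, which is named by an accession, was at −0.73, −3.42, −2.27 and −5.17. Ankrd22, an ankyrin repeat protein, was at −0.04, −1.69, −1.25 and −1.73, and its difference was −0.79 with normexp background correction. On all 3 high fat arrays these genes were below CD, with HFD+PP the nearest to it.

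Among the interferon response genes, 1 of 40 measured rose (Ifi44l, as a bound of at least 3.81-fold, 0.66 log2 with normexp background correction, probed in row 2) and 0 fell, with a median of −0.14. MHC class II genes had 0 of 14 past 2-fold and a median of −0.21, against −0.67 on HFD+Ex. Markers of T and NK cells had 0 higher and 1 lower of 27 (Trat1, at least 3.26-fold, and −0.18 log2 with normexp background correction) and a median of −0.24. Of 28 B and plasma cell markers, 0 rose and 0 fell, with a median of −0.08, and their median was −0.58 on HFD+Ex. Of 28 macrophage and dendritic cell markers, 1 rose and 0 fell. This was Trem2, a receptor of lipid-laden macrophages, at the 2-fold limit. It was under that limit with normexp background correction and with other scalings (lowest 0.40 log2). Of 17 Paneth cell products 0 passed 2-fold, and Lyz1, their lysozyme, was at 8.30 on CD, 8.32 on HFD, 8.29 on HFD+PP and 8.19 on HFD+Ex. Of 21 goblet cell products, Retnlb alone passed 2-fold. Muc2, the main gel-forming mucin, was at 5.93, 5.91, 5.78 and 5.79.

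The CAR and PXR targets split into lower and near-level members. Of 20 measured, 0 rose and 3 fell on HFD+PP, with a median of 0.04. On HFD 10 rose and 0 fell (median 0.98), and on HFD+Ex 8 rose and 1 fell (median 0.46). Cyp2c55, a cytochrome P450 that hydroxylates fatty acids and is induced through CAR and PXR, was at −1.5 on CD, 1.69 on HFD, −3.05 on HFD+PP and −0.30 on HFD+Ex. It was thus lowest on HFD+PP, 2.93-fold below CD, while HFD was 9.11-fold above CD. With normexp background correction its difference was −0.87. Cyp3a44, a P450 of the CYP3A family, was at −0.24, 1.20, −1.62 and −1.70, so both supplemented arrays lay below CD. Cyp3a16 was at −1.73, −0.27, −2.74 and −2.06 (2.02-fold lower, and under 2-fold with normexp or quantile normalization), and Cyp3a11, the main hepatic CYP3A of the mouse, at −1.27, −0.25, −2.15 and −1.29.

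Cyp3a16 and Cyp3a11 are typical of liver in these arrays, whereas Cyp3a44 was not well above background on the liver CD array. Cyp2c55 had a level of −1.70 there. The CYP3A genes are close copies, and 1 probe may read several. The proximal promoters of the 2 genes of this list with the lowest differences are shown because both fell on HFD+PP. On HFD+Ex they went opposite ways from CD, by 1.20 log2 for Cyp2c55 and −1.46 log2 for Cyp3a44. They run from 250 bases before to 50 bases after the annotated start (RefSeq, GRCm38.p6), at chr19:39006769-39007068 on the + strand for Cyp2c55 and at chr5:145805825-145806124 on the − strand for Cyp3a44. Capitals mark the nuclear receptor motifs AGGTCA or AGTTCA and the TATA box letters TATAAA, searched on both strands wherever they lie.
Cyp2c55: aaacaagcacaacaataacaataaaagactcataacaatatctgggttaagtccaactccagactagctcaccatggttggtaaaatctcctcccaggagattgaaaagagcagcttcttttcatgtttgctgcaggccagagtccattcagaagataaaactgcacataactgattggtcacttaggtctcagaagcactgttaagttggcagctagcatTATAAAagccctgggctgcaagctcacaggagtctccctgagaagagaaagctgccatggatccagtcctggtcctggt
Cyp3a44: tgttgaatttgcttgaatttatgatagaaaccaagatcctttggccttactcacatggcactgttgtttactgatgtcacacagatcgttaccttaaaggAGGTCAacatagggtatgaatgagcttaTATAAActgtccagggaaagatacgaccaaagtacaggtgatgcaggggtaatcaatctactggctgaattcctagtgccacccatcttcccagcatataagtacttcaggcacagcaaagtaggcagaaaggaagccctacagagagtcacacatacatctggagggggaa
The Cyp2c55 window held 0 of these receptor motifs and 1 TATA box, and the Cyp3a44 window held 1 AGGTCA and 1 TATA box. Of 32851 promoters of this length, 16.3% held AGGTCA, 14% AGTTCA and 13.6% TATAAA.

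Other targets of the same receptors sat near CD on HFD+PP and above it on the other high fat arrays. Cyp2c65 was at 0.34 on CD, 2.71 on HFD, 0.52 on HFD+PP and 1.76 on HFD+Ex, and Cyp2c66 at 0.70, 3.04, 0.72 and 2.07. Both are intestinal P450s. Cyp2b10, the classic CAR target, was at −3.44, −1.33, −3.15 and −1.96. Abcb1a, which pumps drugs out of enterocytes, was at 3.71, 5.42, 3.80 and 5.00. The member farthest above CD on HFD+PP was Cyp2d26, by 0.77 log2. Cyp2d26 is typical of liver, and Cyp2b10 of liver and brown fat. The part of those tissues in their values was not tested. Aryl hydrocarbon receptor targets had 0 of 11 past 2-fold. Of 34 glutathione transferases and NRF2 targets, 0 rose and 1 fell (Slc7a11, the cystine importer, at least 2.89-fold, and −0.32 log2 with normexp background correction).

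**Figure D4:**
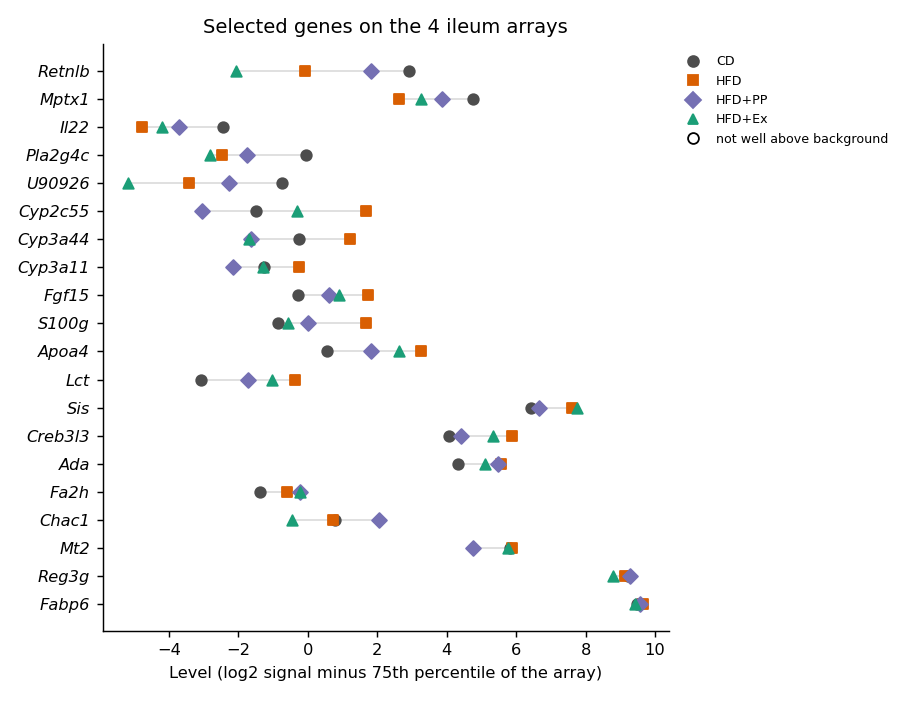
Levels (x axis, log2 signal minus the 75th percentile) of 20 selected genes on the 4 ileum arrays, 1 array per diet, all well above background. Retnlb, Mptx1, Il22, Pla2g4c and U90926 are highest on CD, Cyp2c55 is lowest on HFD+PP and highest on HFD, and Fabp6 and Reg3g hardly move.

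Fat absorption genes moved little. Of 29 measured, 1 rose and 0 fell on HFD+PP, and 25 were above 0, with a median of 0.16. Among all 16477 measured genes, 8492 were above 0. On HFD 4 rose (median 0.63) and on HFD+Ex 3 rose (median 0.28), and 0 fell on either. The riser was Apoa4, an apolipoprotein of chylomicrons, at 0.56 on CD, 3.25 on HFD, 1.82 on HFD+PP and 2.63 on HFD+Ex, which is 2.39-fold higher on HFD+PP. It is also typical of liver, and the part of liver RNA in its value was not tested. Creb3l3, a transcription factor of lipid absorption, was at 4.07, 5.87, 4.4 and 5.32. Fabp1, a fatty acid binding protein, was at 1.76, 4.83, 1.20 and 1.76, so HFD alone stood high. Fabp1 is typical of liver too, and in colon it fell by 5.71 log2 on HFD+PP. The part of liver RNA in its values was not tested either. Mttp, which loads lipid onto apolipoprotein B, was at 4.07 on CD and 4.09 on HFD+PP, and Fabp2 at 8.33 and 8.70.

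Fatty acid oxidation and ketogenesis had 0 of 39 past 2-fold on HFD+PP, with a median of 0.09 and a range of −0.29 to 0.43. On HFD 5 of 40 rose and 1 fell (median 0.54). Cpt1a, the carnitine transferase that admits fatty acids to mitochondria, was at 3.34 on CD, 4.05 on HFD, 3.45 on HFD+PP and 3.64 on HFD+Ex. The receptor Ppara, which drives fatty acid oxidation, was at 2.40, 3.40, 2.31 and 3.09. On both genes HFD was the highest array, and HFD+PP differed from CD by 0.11 and −0.08 log2. Ppara is typical of liver and brown fat, and the part of those tissues in its values was not tested.

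Sugar handling repeated the pattern, with 1 of 18 higher and 0 lower on HFD+PP (median 0.19), against 6 higher on HFD (median 0.71) and 6 on HFD+Ex (median 0.71). Slc2a2, the glucose transporter GLUT2, was at −1.5 on CD, 0.78 on HFD, −1.20 on HFD+PP and 0.82 on HFD+Ex. Fbp1, a gluconeogenic enzyme, was at 1.96, 3.90, 2.43 and 4.49. Sis, which splits sucrose, was at 6.42, 7.61, 6.65 and 7.74, and Slc2a5, the fructose transporter, at 3.09, 4.28, 3.43 and 4.33. HFD+PP lay within 0.50 log2 of CD for these 4 genes. Lct, the lactase of the upper small intestine, was the riser, at −3.09, −0.37, −1.71 and −1.04 (2.60-fold, and 0.76 log2 with normexp background correction). In colon Lct fell by 1.1 log2 on HFD+PP.

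Lct also counts among 13 genes of the proximal small intestine, of which 2 rose and 0 fell (median 0.09). The other was Ada, adenosine deaminase, at 4.33 on CD, 5.58 on HFD, 5.47 on HFD+PP and 5.09 on HFD+Ex (2.21-fold). S100g, the calcium carrier calbindin-D9k, was at −0.85, 1.68, 0.01 and −0.56, short of 2-fold on HFD+PP.

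Bile acid genes were near level. Of 14 measured, 0 rose and 0 fell on HFD+PP, with a median of 0.06. Fgf15 had the highest difference of the list, with levels of −0.29 on CD, 1.73 on HFD, 0.62 on HFD+PP and 0.89 on HFD+Ex (1.88-fold higher on HFD+PP). Its receptor upstream, Nr1h4 (FXR), was at 5.00, 5.28, 4.98 and 5.07. Slc10a2, the transporter that brings bile acids into the enterocyte, was at 5.68, 5.98, 5.75 and 5.72, and Fabp6, which carries them inside it, at 9.48, 9.66, 9.56 and 9.43. Slc51a, a subunit of the basolateral exporter, was at 6.42, 6.98, 6.63 and 6.90. Apart from Fgf15, these genes lay within 0.25 log2 of CD on HFD+PP. Slc10a2 and Fabp6 mark the ileum and were well above background on all 4 arrays. The lowest of the list was Klb, a coreceptor for FGF15, at −0.97 log2.

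Sterol genes showed 1 of 14 higher and 0 lower. The higher one was Soat1, which esterifies cholesterol, at 2.01-fold and probed in row 12. It was under 2-fold with normexp background correction and with other scalings (lowest 0.79 log2). Abcg5, which exports plant sterols and cholesterol to the lumen together with Abcg8, was at 5.09 on CD, 5.94 on HFD, 4.14 on HFD+PP and 5.42 on HFD+Ex, the lowest on HFD+PP (1.93-fold below CD). Abcg8 was at −1.01, −0.04, −0.90 and −0.43 and did not share that drop. In colon both fell on HFD+PP, by 1.24 and 1.17 log2. Cholesterol synthesis had 0 of 25 past 2-fold, with a range of −0.10 to 0.29.

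De novo lipogenesis was the list with the lowest median outside other tissues, at −0.31, beside −0.31 for HFD minus CD. Of 21 measured, 0 rose and 3 fell. Scd1, which desaturates fatty acids, was at 3.65 on CD, 0.63 on HFD, 1.84 on HFD+PP and 0.58 on HFD+Ex (3.51-fold lower on HFD+PP). Thrsp, a lipogenic regulator, was at 2.01, −1.09, 0.19 and −0.85, and Fasn, fatty acid synthase, at −0.51, −2.11, −1.65 and −2.02 (−0.89 with normexp background correction). All 3 are typical of liver and of both fat tissues, and the part of other tissues in these values was not tested.

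Ceramide genes were level. In the synthesis list 0 of 13 passed 2-fold, within −0.04 to 0.21 log2, and Sptlc2, a subunit of the first enzyme, was at 1.83 on both CD and HFD+PP. Of 20 sphingomyelin and ceramide turnover genes 0 passed 2-fold. Smpd3, a neutral sphingomyelinase, was at 2.78 on CD and 2.71 on HFD+PP, and Asah2, the neutral ceramidase, at 0.03 and 0.15. The highest of the list was Acer1, an alkaline ceramidase, at 0.83 on CD, 2.35 on HFD, 1.57 on HFD+PP and 2.30 on HFD+Ex. Fa2h, which hydroxylates fatty acids for sphingolipids, rose 2.22-fold, from −1.38 on CD to −0.23 on HFD+PP, with −0.59 on HFD and −0.24 on HFD+Ex. With normexp background correction its difference was 0.91.

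Mt2, a zinc-binding metallothionein, was lowest on HFD+PP. It was at 5.82 on CD, 5.89 on HFD, 4.76 on HFD+PP and 5.77 on HFD+Ex, 2.08-fold lower on HFD+PP, and in colon it fell by 1.36 log2 on HFD+PP. Its neighbour Mt1 was at 6.94, 6.99, 6.28 and 6.90. Chac1, a glutathione-degrading enzyme of the amino acid response, was highest on HFD+PP, at 0.77, 0.72, 2.04 and −0.44 (2.40-fold). Of 30 genes of endoplasmic reticulum stress and the amino acid response, Chac1 rose and Slc7a11 fell. Csnk2b, the regulatory subunit of casein kinase 2, was at 5.13, 5.19, 3.86 and 5.07, and Map7d1, a microtubule-binding protein, at 4.28, 4.17, 3.20 and 4.27. Slc22a15, an organic ion transporter, was at −2.07, −2.06, −0.27 and −2.03, probed in row 47.

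Other genes of this set had the CD array alone apart from the 3 high fat arrays. Spaca4, a sperm membrane protein, was at −4.70 on CD, 0.86 on HFD, 0.92 on HFD+PP and 0.54 on HFD+Ex, a 49.1-fold difference on HFD+PP. Cd244a, a receptor of NK cells, was at −1.72, 1.93, 1.64 and 2.06, and Erp44, an endoplasmic reticulum chaperone, at −1.20, 0.77, 0.73 and 0.73. Their differences in colon were −0.01, 0.01 and −0.19 log2. Celf4, an RNA-binding protein, was at −0.01, 2.23, 2.82 and 2.20, and its difference fell from 2.82 to 1.43 with the mean of its 2 probes. Cyp17a1, a steroid hydroxylase, was at 1.12, 2.91, 3.41 and 2.50.

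Outside genes of other tissues, the rule for naming genes took the 12 highest and 12 lowest differences measured on both arrays, and the rest of them were dim. Besides Spaca4, Cd244a and Celf4, the highest were Slc6a20b (10.9-fold), Lhx3 (10.5-fold), Rhox4g (9.66-fold), Olfr482 (8.71-fold), Klrg2 (7.44-fold), Ric3 (7.14-fold), Rgs22 (7.09-fold), Atp6v0a4 (6.96-fold) and Gad2 (6.43-fold). All 9 were probed in rows 2 to 64, and each had a level below 0 on HFD+PP and its highest ileum level there. With normexp background correction, Gad2 and Rgs22 were under 2-fold (0.90 and 0.87 log2). Lhx3, a pituitary and motor neuron transcription factor, was at −4.86 on CD and −1.47 on HFD+PP, and Gad2, a GABA-making enzyme of neurons, at −5.19 and −2.50. Outside other tissues, the 5 highest bounds were Six3 (at least 27-fold), Abhd3 (at least 25.8-fold), Six3os1 (at least 21.8-fold), Defb34 (at least 20.3-fold) and Htr1d (at least 17.2-fold), probed in rows 13 to 65. Six3, a forebrain and eye transcription factor, was at −0.77 on HFD+PP and not well above background on CD, HFD or HFD+Ex.

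Besides Pla2g4c, U90926, Cyp2c55, Cyp3a44 and Csnk2b, the lowest were Exph5 (6.32-fold), Greb1l (3.40-fold), Trex2 (3.16-fold), Asb11 (2.93-fold), Olfr1383 (2.73-fold), Riiad1 (2.52-fold) and Sorbs2 (2.41-fold). They were probed in rows 379, 13, 383, 5, 70, 6 and 20 in that order. With normexp background correction, all of these except Exph5 were under 2-fold, from −0.28 log2 for Sorbs2 to −0.73 log2 for Trex2. Exph5, a RAB27-binding protein, was at −1.01 on CD, −3.30 on HFD, −3.67 on HFD+PP and −3.62 on HFD+Ex, with CD alone high. Outside other tissues, the 5 lowest bounds were the olfactory receptor genes Olfr937 (at least 21.1-fold), Olfr1002 (at least 12.6-fold), Olfr273 (at least 11.6-fold), Olfr589 (at least 9.51-fold) and Olfr1472 (at least 8.23-fold). Each was well above background in ileum on the CD array alone, and olfactory receptor genes form a large family of close copies.

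Other lists held single calls. Mmp3, a matrix-degrading protease, fell 2.73-fold and was the 1 of 36 fibroblast and matrix genes past 2-fold. Arg1, the arginase of the urea cycle, was at least 2.81-fold lower, and Egr3, an immediate early transcription factor, at least 2.97-fold lower. Hoxa13, which patterns the hindgut, was at least 2.38-fold lower, and Ces3a, a liver carboxylesterase, at least 9.86-fold lower. With normexp background correction, Mmp3, Arg1, Egr3 and Hoxa13 were under 2-fold. Upwards among genes of other tissues, Amy2a5, the pancreatic amylase, rose 2.34-fold, and Klra7, an NK cell receptor, 7.31-fold. The muscle genes Casq1 and Myh4 were at least 4.49-fold and at least 3.16-fold higher, and these 4 were under 2-fold with normexp as well.

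Further genes of lipid, sugar and bile acid handling lay under 2-fold. The differences were 0.42 log2 for Apoa1, an apolipoprotein, 0.20 log2 for Dgat1, which makes triglyceride, and −0.06 log2 for Cd36, a fatty acid receptor. They were 0.12 log2 for Npc1l1, the cholesterol importer, 0.04 log2 for Slc5a1, the glucose transporter SGLT1, and 0.06 log2 for Slc51b, the partner of Slc51a. Angptl4 and Pdk4, both targets of Ppara, differed by −0.02 and −0.27 log2, and Cers6, a ceramide synthase, by 0.09 log2. Pigr, which carries IgA to the lumen, differed by 0.04 log2. Nr0b2, the FXR target SHP, was near background on CD and not well above it on HFD+PP.

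Across 48 lists with at least 5 measured members outside other tissues, the median lay within 0.25 log2 of 0 for 46 on HFD+PP. The same count was 26 for HFD minus CD and 32 for HFD+Ex minus CD. List medians ran from −0.31 to 0.46 on HFD+PP and from −0.59 to 0.98 on HFD. At the low end beside lipogenesis stood T and NK cell markers (−0.24) and endothelial genes (−0.22), and at the high end mesothelial genes (0.46).

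**Figure D5:**
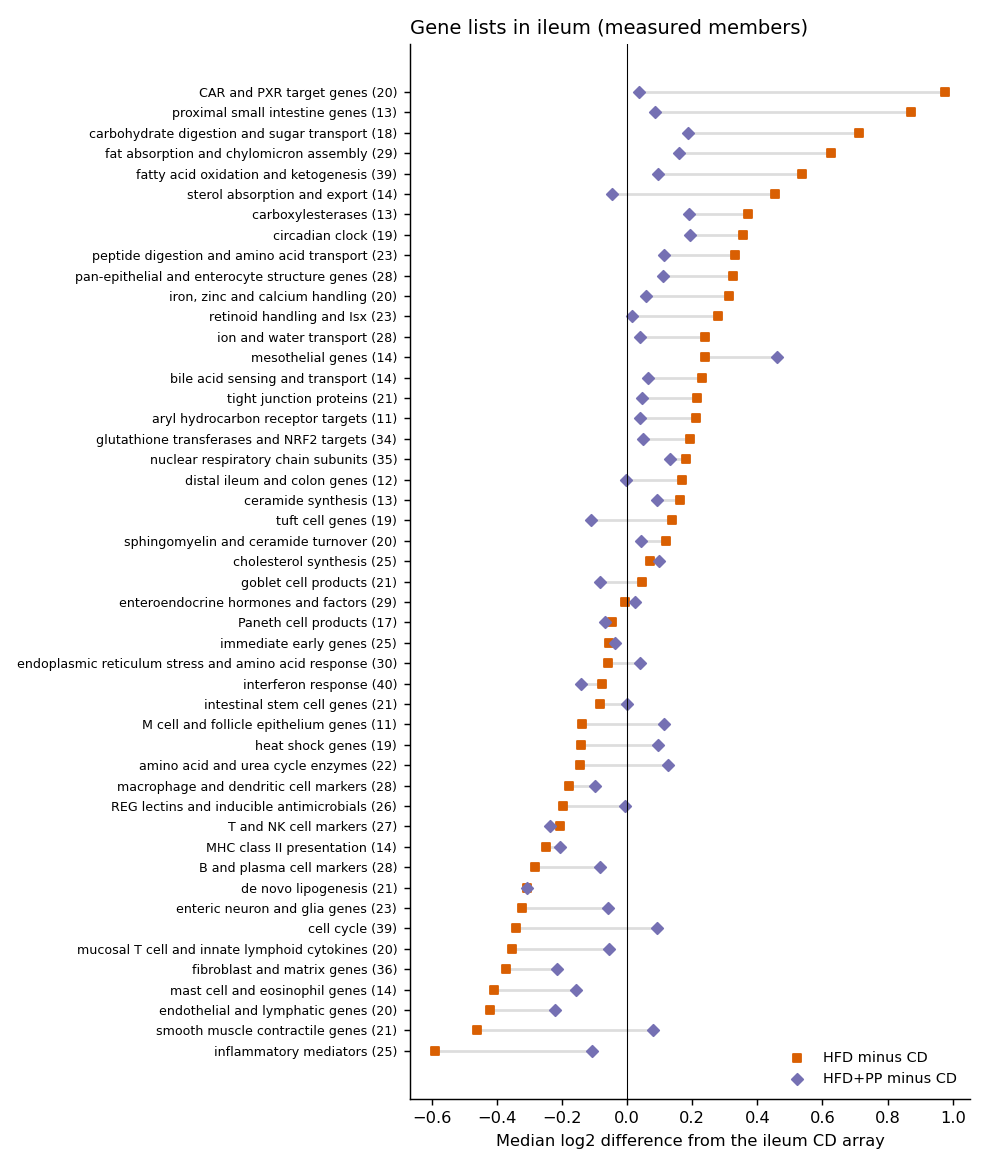
Median log2 difference from the ileum CD array (x axis) for each gene list (y axis, number of measured members in brackets), for HFD+PP (diamonds) and HFD (squares), which share the CD array. The HFD+PP medians lie between −0.31 and 0.46 and the HFD medians between −0.59 and 0.98.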

How the data were processed

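RNA of pooled ileum was hybridised to 1-colour arrays, 1 array per diet. Per the file headers, the authors read them with Agilent Feature Extraction 11.5.1.1, and the deposited intensity is the background-subtracted processed signal per spot, with no scaling between arrays. Control spots (3671 of 62976) and outlier spots were left out, and spots of 1 probe were averaged. Accessions were matched to RefSeq genes of GRCm38.p6: 28026 of 55681 probes had a symbol, giving 21154 genes, and the brightest probe on average over the 20 arrays stood for a gene.

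Each log2 intensity was taken minus the 75th percentile of its array. A gene typical of another tissue was at least 8-fold higher there than in ileum. The 2 ileum arrays lie on 1 slide. The number of arrays limits the precision.

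Outside genes of other tissues and without Gm, Rik and LOC names, the text names the 12 highest and 12 lowest differences and the 5 largest bounds each way. It also names up to 4 members per list past 2-fold each way, the 3 highest and lowest genes of other tissues, and a set of bile acid, lipid, ceramide and defence genes. Genes outside this rule, among them Mptx1, S100g, the genes of the −2 mean level cut and list members under 2-fold, were chosen after their values were seen. A few genes of that set are not reported here. Members and the 52 lists were chosen with earlier results of these data known.

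The alternatives were normexp on the median signal (the files used here hold no mean signal column) and background, other scalings, filters and probe rules, and the authors' series matrix. Its columns equal the scanner's processed signal times 1 factor per array, so they are linear and not centred; what the factor was set to is not known. The column medians were 96.4 on ileum CD, 80.6 on HFD, 87.1 on HFD+PP and 91.6 on HFD+Ex. R 4.3.3, limma 3.58.1, pandas 2.3.3, numpy 2.4.6 and matplotlib 3.10.9 were used, and the scripts were tested on simulated data.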

Additional observations from a re-analysis of the deposited data

Results flagged for a closer look

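Named genes past 2-fold in ileum and past 2-fold the other way in colon, for HFD+PP minus CD in the same mice, were Retnlb and Lct. Retnlb, the goblet cell protein RELM-beta, differed by −1.09 log2 in ileum and 1.96 log2 in colon. Lct, the lactase, differed by 1.38 log2 in ileum and −1.1 log2 in colon, where its levels were −4.65 on CD and −5.76 on HFD+PP. With 1 array per tissue and diet, the difference between the tissues was not tested.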

How the results depend on the processing

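The counts of 224 higher and 168 lower genes rest mostly on dim probes. They came to 53 and 48 with normexp background correction, 84 and 63 when both arrays had to be well above background, and 438 and 1021 with no filter on dim probes. Without genes typical of liver or fat, 86 were lower. Among alternatives added after seeing the data, leaving out genes probed in rows 1 to 192 gave 26 higher and 86 lower, a mean ileum level of at least −2 gave 21 and 19, and that level without genes of other tissues gave 13 and 9. Quantile normalization gave 291 and 135, which moved the share of higher genes among the changed from 57.1% to 68.3%. The other scalings and probe rules that were run gave 215 to 249 higher and 169 to 195 lower genes. Of the changed genes named in the text, Retnlb, Cyp3a44, Pla2g4c, Ada, Chac1, Mt2 and Scd1 stayed past 2-fold under each alternative that could be run for them, whereas Cyp2c55 (−0.87), Il22 (−0.64), Lct (0.76), Fa2h (0.91), Ankrd22 (−0.79) and Fasn (−0.89) were under it with normexp. Normexp with its offset of 50 also lowers the bounds, to 1.88 log2 for Six3 and −2.51 log2 for Olfr937. Under the alternatives that were run, 0 named differences of at least 2-fold changed direction. No paired analysis was possible because each diet has 1 array. Between pools, nothing in these data measures the spread, so the size of any single difference is uncertain. Genes below the floor of an array, at −5.52 on CD and −4.97 on HFD+PP, give bounds only. Gad2 and Rgs22, given as measured on both arrays, were near the CD floor, at −5.19 and −5.14.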

Other observations

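The cell cycle list had 0 of 39 genes past 2-fold in ileum on HFD+PP (median 0.09), against a median of −0.34 on HFD and −0.25 on HFD+Ex, and in colon 10 of 39 rose on HFD+PP (median 0.90). Nuclear-encoded respiratory chain subunits were all above 0 in ileum on HFD+PP, 35 of 35, by a median of 0.13 log2 and a range of 0.02 to 0.58, with 0 past 2-fold. Of all 16477 measured genes, 8492 were above 0. The median of these subunits was 0.18 on HFD, −0.02 on HFD+Ex and 0.15 for HFD+PP minus CD in colon. Smooth muscle contractile genes had a median of 0.08 on HFD+PP and −0.46 on HFD, and circadian clock genes had a median of 0.19 on HFD+PP, 0.36 on HFD and 0.53 on HFD+Ex, with 0 past 2-fold on HFD+PP. Gcg, the glucagon-like peptide gene of L cells, was at 2.87 on CD, 2.86 on HFD, 2.89 on HFD+PP and 3.19 on HFD+Ex, and Pyy, their satiety peptide, at 2.21, 2.51, 2.44 and 2.50. Isx, a homeobox repressor of vitamin A uptake, was at 4.73, 5.14, 4.96 and 4.86, and its target Bco1 at −2.02, −1.68, −2.0 and −1.16. H2-M11, a class I gene counted as typical of liver, was not well above background on CD and at −0.68, −1.0 and −1.15 on HFD, HFD+PP and HFD+Ex. Hp, haptoglobin, was the 1 of 41 genes of the liver list that rose, at 2.04, 2.33, 3.20 and 0.75 in the order CD, HFD, HFD+PP and HFD+Ex.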
